A study of Mus musculus with 4 samples.

Results

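The genes described here are Dync1h1, which encodes the heavy chain of cytoplasmic dynein-1, and 9 genes whose products work in the same motor complex. They were chosen by gene symbol and not by their levels, and all 10 symbols were found among the 34745 genes of the count table. None was lost to the filter on low counts, and all 10 were among the 12418 genes tested. The samples were cultured mouse macrophages in 4 libraries of total RNA, 2 labelled WT and 2 labelled KO, numbered 1 and 2 within each genotype. Per the study's text, the WT libraries came from bone marrow-derived macrophages (BMDMs) of G3bp1f/f mice, in which both copies of G3bp1 are flanked by recombination sites, and the KO libraries from G3bp1mac-/- mice, which carry the same floxed gene together with Lyz2-Cre. The Lyz2 promoter that drives this Cre recombinase is active across myeloid cells and is not particular to macrophages. All 4 cultures were grown in DMEM with fetal serum, no stress treatment is named for them, and the age and sex of the donor mice of these libraries are not given. Nothing states that replicates came from separate animals or cultures, so p-values measure the spread between these libraries, which may be technical.

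Cytoplasmic dynein-1 is the motor that walks toward the minus ends of microtubules, which in most cells lie near the nucleus. It draws endosomes, phagosomes, lysosomes, the Golgi apparatus and some mRNA-protein particles inward. A pair of heavy chains holds the ATPase and the microtubule-binding stalk, intermediate and light intermediate chains bind cargo and adaptors, and small light chains join the intermediate chains. Dynactin, a large complex built around a short actin-like filament, and an adaptor such as BICD2 are needed for long runs along the microtubule. The study listed Dync1h1 as a candidate target of stress granules (SGs), the cytoplasmic condensates of untranslated mRNA that G3BP1 scaffolds, and the comparison below asked whether the level of this mRNA and of its partners differed between the genotypes in these cultures.

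Among the 10, the largest differences were those of Dynll1 and Dynll2, which encode the LC8 light chains, and their coding sequences are shown because reads of such close paralogues could be assigned to the wrong gene. Both were read from GENCODE release M21 on GRCm38, 5′ to 3′ on the coding strand, and capitals mark the bases at which they differ. The minus strand carries both genes, Dynll1 on chromosome 5 (115297110 to 115300999) and Dynll2 on chromosome 11 (87979525 to 87987533).

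Dynll1: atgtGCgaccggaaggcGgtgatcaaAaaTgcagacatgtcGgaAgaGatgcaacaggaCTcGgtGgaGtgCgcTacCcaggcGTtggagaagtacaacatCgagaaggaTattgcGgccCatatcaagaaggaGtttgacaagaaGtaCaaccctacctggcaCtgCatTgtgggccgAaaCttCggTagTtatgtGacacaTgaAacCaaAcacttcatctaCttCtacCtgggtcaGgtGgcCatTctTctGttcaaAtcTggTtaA

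Dynll2: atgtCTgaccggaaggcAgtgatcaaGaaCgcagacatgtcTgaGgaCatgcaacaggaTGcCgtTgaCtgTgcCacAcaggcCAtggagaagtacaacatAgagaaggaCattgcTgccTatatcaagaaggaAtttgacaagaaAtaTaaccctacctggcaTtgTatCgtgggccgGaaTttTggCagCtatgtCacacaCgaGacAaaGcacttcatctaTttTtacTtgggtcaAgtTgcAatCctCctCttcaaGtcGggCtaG

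The 270-base sequences differed at 51 positions and were 81.1% identical, whereas the 89-residue proteins they encode differed at 6 residues and were 93.3% identical. The longest run they shared was 16 bases, tggagaagtacaacat, from base 86 to base 101. No 50-base window of the principal Dynll2 transcript occurred in a transcript of another gene, and 3.48% of the Dynll1 windows did, none of them in Dynll2.

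The targeted gene, G3bp1, had WT counts of 1691 and 2875 and KO counts of 1307 and 2296, and its fitted log2 fold change was -0.61 (SE 0.40, edgeR quasi-likelihood adjusted p 0.904). Both genotypes overlapped. KO was lower by like amounts in both numbers (log2 ratios of -0.57 and -0.63), and the fitted value ran from -1.03 without KO replicate 2 to -0.19 without WT replicate 2. Counts over a whole gene cannot show that single exons were lost, so G3bp1 could not serve to check the labels. The study reported an efficient loss of G3BP1 in G3bp1mac-/- macrophages, from mRNA and protein measured in BMDMs. These counts over the whole gene do not show such a loss. Total counts ranged from 16724241 to 19747909 per library, and 0 counts allowed up to 0.152 to 0.188 CPM (counts scaled to equal library totals, here after TMM), counting error only. The list of macrophage markers summed to 24790 and 26692 CPM in WT against 21299 and 24775 CPM in KO, none of them at 0 in every library. Stromal markers summed to 73.9 and 87.8 CPM in WT and to 297 and 323 CPM in KO with all 8 detected. Neutrophil markers summed to 21.2 and 22.1 CPM in WT against 7.73 and 11.3 CPM in KO (2 of 8 at 0 throughout), and B cell markers to 43.2 and 47.0 CPM against 23.4 and 27.0 CPM (0 of 6 at 0). Mast cell and basophil markers summed to 32.1 and 35.3 CPM against 18.2 and 22.0 CPM (1 of 6 at 0), and erythroid markers to 8.10 and 11.3 CPM against 1.82 and 2.90 CPM (1 of 6 at 0). Dendritic cell markers summed to 1.91 and 2.89 CPM against 3.06 and 5.33 CPM and T and NK cell markers to 1.07 to 2.03 CPM over all libraries, with 0 of 6 and 0 of 7 at 0. The part of these other cells in the values below was not tested, and in bulk RNA fewer cells of a type and less RNA per cell cannot be told apart.

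None of the 10 genes differed between genotypes past the thresholds of an adjusted p under 0.05 and a fold change over 2. The quasi-likelihood test called 0 of the 10, as it called 0 of all 12418 tested genes (0%), and the DESeq2 Wald test (1.46% of all genes called) and the edgeR exact test (1.84%) also called 0 of the 10. At an unadjusted p under 0.05 there was 1 of the 10, Dynll2, against 6.63% of all tested genes. The KO libraries were the lower pair, without overlap, for 2 of the 10, Dynll1 and Dynll2, against 16.9% of all genes, and the higher pair for 1, Dctn4, against 20.0%. The libraries overlapped for the other 7. The fitted log2 fold change was above 0 for 6 of the 10, with a median of 0.034 beside 0.041 over all tested genes, and the median of the 10 was -0.0023 with DESeq2 size factors and ran from -0.14 (without WT replicate 1) to 0.24 (without WT replicate 2). The fitted values of the heavy chain, the intermediate and light intermediate chains and the 3 dynactin genes ran from -0.066 to 0.16 on the log2 scale, with Bicd2 above them and both LC8 genes below.

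**Figure D1:**
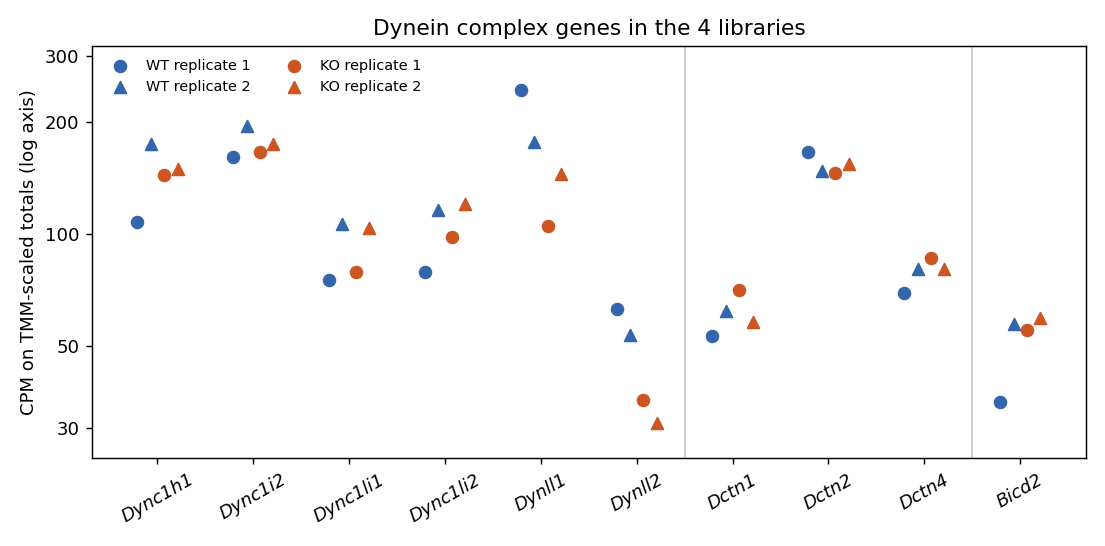
Level of each dynein complex gene in the 4 libraries, in CPM on TMM-scaled totals (log axis), with WT in blue, KO in orange, replicate 1 as circles and replicate 2 as triangles; lines separate dynein chains, dynactin and the adaptor. Both KO points lie below both WT points for Dynll1 and Dynll2, and WT replicate 1 is the lowest point for 7 of the 10 genes (all but Dynll1, Dynll2 and Dctn2).

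Dync1h1 (ENSMUSG00000018707) lies on chromosome 12 from 110601452 to 110666945 of GRCm38 on the plus strand, and its principal transcript has 77 exons and 14342 bases. It had WT counts of 1744 and 2783 and KO counts of 2686 and 2945, which is 108 and 175 CPM against 144 and 149.6 CPM. Both KO libraries thus sat between the WT libraries, which lay 0.70 apart on the log2 scale while the KO libraries lay 0.054 apart. With n = 2 each, the mean level was 141 ± 47.5 CPM (SD) for WT and 147 ± 3.87 CPM (SD) for KO. The fitted log2 fold change was 0.058 (SE 0.31, 95% interval -0.72 to 0.83, edgeR quasi-likelihood adjusted p 0.990). The interval runs from 0.608 to 1.78 times the WT level, so with 2 libraries per genotype these data do not tell changes within these bounds apart. It does not give the smallest change that the test could have called. WT replicate 1 decided the sign: without it the value was -0.25, and without WT replicate 2 it was 0.42. An antisense gene, Gm17111, overlaps Dync1h1 and had 0 counts in every library.

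The intermediate and light intermediate chains gave no difference beyond the spread between replicates. Dync1i2, the intermediate chain through which the motor binds the dynactin subunit encoded by Dctn1, had 161 and 195 CPM in WT against 166 and 175 CPM in KO, with a log2 fold change of -0.065 (SE 0.24). As for Dync1h1, both KO libraries lay within the WT range. The other intermediate chain gene, Dync1i1, known for its expression in neurons, had WT counts of 1 and 0 and KO counts of 0 and 1 and was not tested. The light intermediate chains bind adaptors directly. Dync1li1 had 75.4 and 106 CPM in WT against 79.1 and 104 CPM in KO, and its fitted log2 fold change was 0.0096 (SE 0.29). Dync1li2 had 78.8 and 116 CPM in WT against 98.0 and 121 CPM in KO, and its fitted log2 fold change was 0.16 (SE 0.29). In both genes the second library of each genotype was the higher one, and the libraries of the genotypes overlapped. The ratio of Dync1li1 to Dync1li2 counts within a library was 0.957 and 0.916 in WT against 0.807 and 0.863 in KO, lower in both KO libraries. Dync1li2 has the longer principal transcript, 4627 against 2601 bases. Tested genes of 2459 to 2898 bases had median log2 ratios, KO over WT, of 0.080 for number 1 and 0.0067 for number 2. Those of 4028 to 4808 bases had 0.31 and 0.042. The part of transcript length in this order was not tested.

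The LC8 light chains had lower values in KO, short of the threshold. LC8 is a dimer that joins dynein intermediate chains and also binds many proteins outside the motor. Dynll1 had WT counts of 3948 and 2818 and KO counts of 1954 and 2856, which is 243 and 177 CPM against 105 and 145 CPM. The lowest of the 4 was KO replicate 1 and the highest WT replicate 1, and the genotypes did not overlap. The fitted log2 fold change was -0.75 (SE 0.30, 95% interval -1.51 to 0.011), at an unadjusted p of 0.052 and an edgeR quasi-likelihood adjusted p of 0.758. Dynll2 had WT counts of 1020 and 854 and KO counts of 668 and 611, which is 62.9 and 53.6 CPM against 35.8 and 31.0 CPM. Its KO libraries lay close together and well below both WT libraries. The fitted log2 fold change was -0.80 (SE 0.24, 95% interval -1.40 to -0.20), at an unadjusted p of 0.018 and an edgeR quasi-likelihood adjusted p of 0.511.

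The ratios between libraries of the same number were set side by side. For Dynll2, KO over WT gave a log2 ratio of -0.81 in the libraries numbered 1 and -0.79 in those numbered 2, and for Dynll1 it gave -1.21 and -0.29. The count of Dynll1 per count of Dynll2 was 3.87 and 3.30 in WT against 2.93 and 4.67 in KO, with no order by genotype. Leaving out 1 library at a time gave -0.50 to -1.01 for Dynll1 and -0.68 to -0.94 for Dynll2. The edgeR adjusted p ranged from 0.401 to 1.00 and from 0.396 to 1.00 in these 4 fits.

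None of the dynactin genes among the 10 passed the test either. Dctn1 encodes p150Glued, the arm that binds microtubules and the dynein intermediate chain, and it had 53.2 and 62.1 CPM in WT against 70.7 and 58.0 CPM in KO. Its log2 fold change was 0.16 (SE 0.24), with 0.012 to 0.29 when 1 library was left out, and the genotypes overlapped. Dctn2 encodes dynamitin, the shoulder subunit whose excess takes dynactin apart, with 166 and 148 CPM in WT against 145 and 154 CPM in KO, and its fitted log2 fold change was -0.066 (SE 0.22). Dctn4 encodes p62 at the pointed end of the dynactin filament. It had 69.2 and 80.5 CPM in WT against 86.3 and 80.7 CPM in KO. The lower KO library thus barely exceeded the higher WT library, and the fitted log2 fold change was 0.16 (SE 0.23), with 0.053 to 0.24 when 1 library was left out.

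Bicd2, an adaptor that ties dynein and dynactin to Golgi and nuclear cargo, had the highest fitted value of the 10. It had 35.3 and 57.2 CPM in WT against 55.1 and 59.4 CPM in KO. WT replicate 1 stood below the other 3 libraries, which lay close together. The fitted log2 fold change was 0.31 (SE 0.30, 95% interval -0.46 to 1.08, edgeR quasi-likelihood adjusted p 0.957). Its value was 0.0031 without WT replicate 1.

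Levels were compared between genes per kilobase of the annotated principal transcript. Dctn2 stood highest with a mean of 85.8 CPM per kilobase over the 4 libraries, followed by Dynll1 with 82.5 and Dync1i2 with 66.2, and the ranges of these neighbours overlapped. Dynll1 has a second principal transcript of 729 bases beside the one of 2030 bases used here, and on that length its level would be 229.8 CPM per kilobase. Dync1li1 followed with 35.1 CPM per kilobase, apart from its neighbours on either side. Dync1li2, Dctn4, Dynll2 and Dctn1 had 22.3, 21.2, 18.5 and 14.2 CPM per kilobase, and each overlapped the next. The heavy chain and the adaptor came last, with 10.0 CPM per kilobase for Dync1h1 and 8.20 for Bicd2, whose ranges overlapped each other and stayed below that of Dctn1. This order depends on the transcript length used. The length behind the deposited FPKM was 5.03 times the annotated one for Dync1i2 and 3.16 times for Dynll1, and on the deposited lengths their levels would be 13.2 and 26.1 CPM per kilobase. Dctn2 would still rank highest with 79.8, and Dctn1 with 6.49 would lie under Dync1h1 with 8.16.

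**Figure D2:**
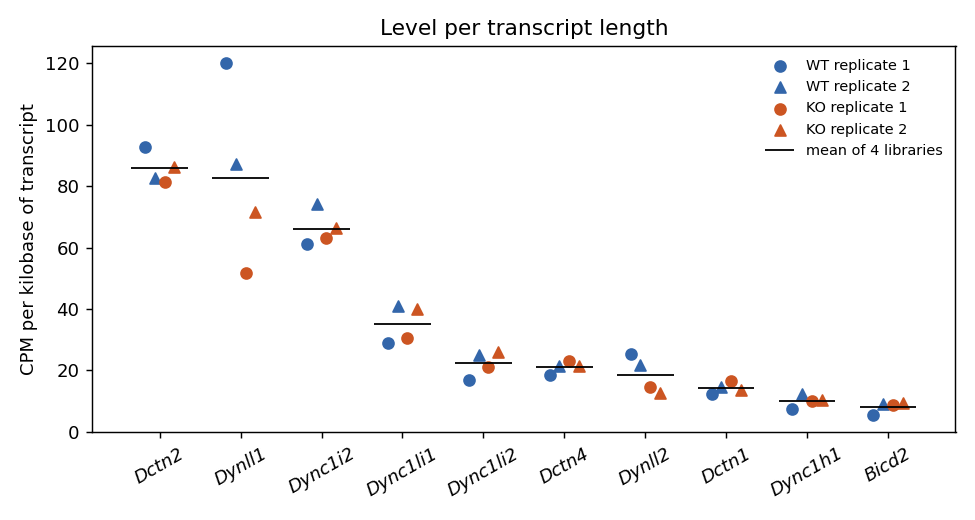
CPM per kilobase of principal transcript for each gene in the 4 libraries, ordered by the mean of the 4 (black line); WT in blue, KO in orange, replicate 1 as circles and replicate 2 as triangles. The ranges of Dync1i2, Dync1li1 and Dync1li2 are apart from one another, and those of Dync1h1 and Bicd2 lie lowest.

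The pattern of Dync1h1 over the 4 libraries was set beside those of all other tested genes, as the Euclidean distance between log2 CPM values centred on each gene's mean. The nearest of 12417 genes were Ptbp3, Mark2, Apobr, Prdm4 and Tut1, at distances of 0.049 to 0.062, where the median distance was 0.73. Among its partners, Dync1li2 ranked 390, Bicd2 633, Dync1li1 977 and Dync1i2 1518. The dynactin genes ranked 1742 (Dctn4), 2414 (Dctn1) and 5091 (Dctn2), and the LC8 genes came last at 9856 (Dynll2) and 10442 (Dynll1). With 4 libraries this order is a description, and the values share the depth and the length trend of each library.

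The other subunits of dynein-1 that were tested had lower fitted values in KO in 5 of 6 cases, and 0 of the 6 were called by the quasi-likelihood test, with 1 at an unadjusted p under 0.05 (6.63% of all genes). Their median log2 fold change was -0.51 beside 0.041 over all genes, and the KO libraries were the lower pair, without overlap, for 4 of the 6, where all genes gave 16.9%. Of these 4, Dynlt1a, Dynlt1b and Dynlt1f are near-identical copies and not separate cases. The median ran from -0.23 without WT replicate 1 to -0.77 without WT replicate 2, and it was -0.085 once a trend with annotated transcript length was removed, a correction chosen after seeing the data. Dynlt1b, which encodes a light chain of the Tctex type, had WT counts of 576 and 289 and KO counts of 140 and 150. Its fitted log2 fold change was -1.82 (SE 0.38, edgeR quasi-likelihood adjusted p 0.289), and it was the gene of this group called by both the DESeq2 Wald test (adjusted p 0.00580) and the edgeR exact test (adjusted p 0.0138).

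Mouse has several near-identical copies of this light chain gene, and between 67.7% and 93.7% of their 50-base windows occurred in transcripts of another gene, so how counts were split between the copies is uncertain. The copies gave log2 fold changes of -1.07 for Dynlt1a, -0.61 for Dynlt1f and 0.14 for Dynlt1c. Without WT replicate 1, Dynlt1a had -0.43 and Dynlt1f -0.12, and without WT replicate 2 they had -1.55 and -1.01. Summed over the 4 copies, there were WT counts of 1280 and 648 and KO counts of 559 and 520. Both KO libraries were lower, and the log2 ratio was -1.40 for number 1 and -0.62 for number 2. The light chains Dynlt3 and Dynlrb1, of the Tctex and roadblock types, had -0.097 and -0.40, and Dynlrb2 had 0 counts throughout. With 1 library left out, Dynlrb1 ran from -0.63 to -0.21, but removing the trend with annotated length reversed its sign, to at most 0.080.

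Of the 9 other dynactin subunits, all tested, 0 were called and 0 had an unadjusted p under 0.05 in the quasi-likelihood test, and DESeq2 and the edgeR exact test also called 0. Their median log2 fold change was -0.22, with 2 above 0, and -0.10 with the trend with annotated length removed. The pointed-end subunits gave -0.032 for Dctn5, -0.45 for Dctn6 and -0.39 for Actr10, and Dctn3, in the shoulder with dynamitin, gave -0.47. Dctn6 had -0.017 without WT replicate 1 and -0.82 without WT replicate 2, and with 1 library left out Actr10 ran from -0.65 to -0.17 and Dctn3 from -0.66 to -0.29. The libraries of the genotypes did not overlap for 4 of the 9, with KO lower in 3 and higher in 1, beside 16.9% and 20.0% of all genes. The actin-related filament genes gave 0.086 for Actr1a and 0.12 for Actr1b, the latter with 0.055 to 0.15 when 1 library was left out. The capping protein genes, which also serve ordinary actin filaments, gave -0.043 for Capza1, -0.28 for Capza2 and -0.22 for Capzb.

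**Figure D3:**
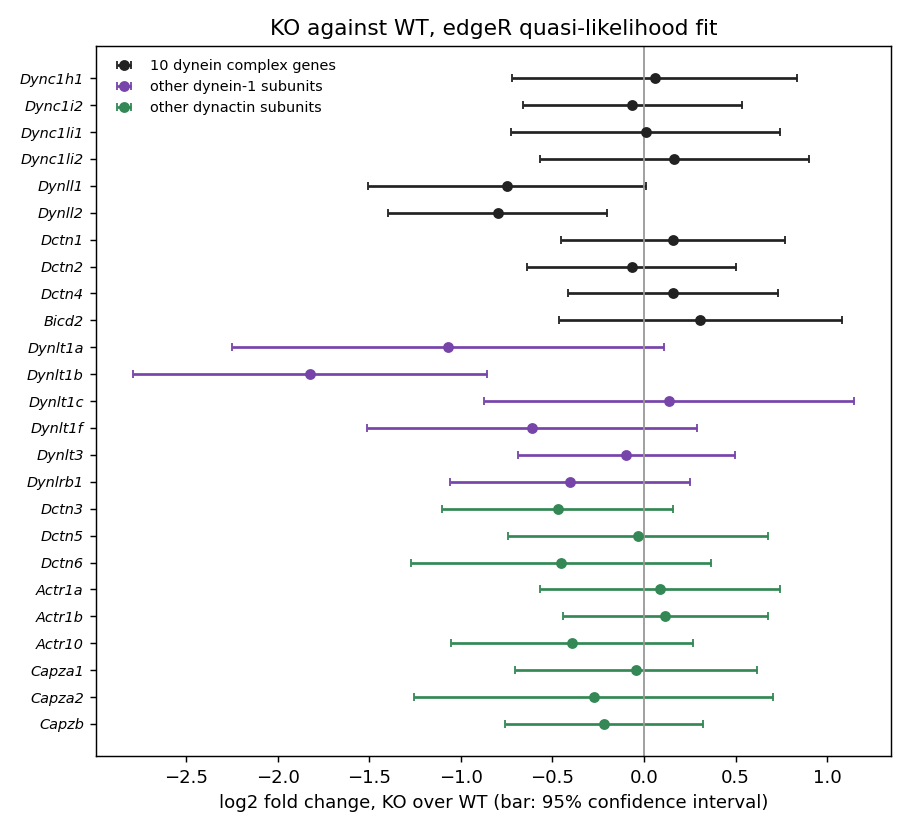
Fitted log2 fold change of KO over WT with its 95% confidence interval (bars) for the 10 dynein complex genes (black), other dynein-1 subunits (purple) and other dynactin subunits (green). The intervals of Dynll2 and Dynlt1b do not reach 0, and all others shown cross it.

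Adaptors that link dynein to cargo had mostly higher fitted values in KO. Of 21 adaptors 18 were tested, and 14 of them had a log2 fold change above 0, as did 6776 of all 12418 genes. The median was 0.26, with 0.15 without WT replicate 1, 0.51 without WT replicate 2 and 0.061 with the trend with annotated length removed. The KO libraries were the higher pair, without overlap, for 8 of the 18, beside 20.0% of all genes. The quasi-likelihood test called 0 of the 18, with 2 at an unadjusted p under 0.05 (6.63% of all genes), while the DESeq2 Wald test (1.46% of all genes) and the edgeR exact test (1.84%) each called 2, Bicd1 and Ninl. Bicd1, a paralogue of Bicd2, had WT counts of 5 and 7 and KO counts of 53 and 42, and its fitted log2 fold change was 2.71 (SE 0.48, edgeR quasi-likelihood adjusted p 0.251). Ninl, a ninein-like centrosomal adaptor named after its values were seen, had WT counts of 17 and 13 and KO counts of 96 and 80, and its fitted log2 fold change was 2.30 (SE 0.38, edgeR quasi-likelihood adjusted p 0.250). Neither exceeded 96 counts in any library. The stromal markers given above were likewise higher in both KO libraries, and their part in these low counts was not tested. The lowest adaptor was Rilp, which recruits dynein to late endosomes and lysosomes, with -0.40 (SE 0.32), or -0.56 to -0.25 with 1 library left out.

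The regulators of dynein gave 0 calls among 7 tested genes by all 3 tests, 0 at an unadjusted p under 0.05, and a median log2 fold change of 0.079, which was -0.091 without WT replicate 1, 0.27 without WT replicate 2, 0.13 without KO replicate 1, 0.026 without KO replicate 2 and -0.025 with the length correction. Clip1, which binds growing microtubule ends and dynactin, had the highest value at 0.52 (SE 0.26), and Mapre1, the end-binding protein EB1, the lowest at -0.078 (SE 0.26). The genotypes did not overlap for 1 of the 7, with KO higher, beside 20.0% of all genes.

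Median log2 ratios of genes grouped by length spread more widely within number 1 than within number 2. Tested genes were split into 10 bins of nearly equal size by transcript length. In the bin of the shortest (151 to 1134 bases) the median log2 ratio, KO over WT, was -0.78 for number 1 and -0.11 for number 2, and in that of the longest (6322 bases and over) it was 0.51 and 0.051. The 100 genes nearest to Dync1h1 in length (11571 to 17152 bases) had medians of 0.52 and -0.029. Dync1h1 had 0.42 within number 1 and -0.22 within number 2, below these medians in both. With the trend with annotated length removed its log2 fold change was -0.27.

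The LC8 genes lay below the median of the genes in their length bins in both numbers, and the spread within bins was not measured. The bins that hold Dynll1 (2030 bases) and Dynll2 (2476 bases) had medians of -0.015 and 0.080 within number 1 and -0.012 and 0.0067 within number 2. On its 729-base transcript Dynll1 would fall among the shortest genes instead, with medians of -0.78 and -0.11 beside its own -1.21 and -0.29. With the annotated trend removed, Dynll1 had -0.69 and Dynll2 -0.82, neither called. Dctn1, Dctn4, Dync1li2 and Bicd2 had ratios of 0.31 to 0.64 within number 1 and -0.098 to 0.056 within number 2, and the bins of their lengths had medians of 0.25 to 0.42 and 0.030 to 0.059.

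**Figure D4:**
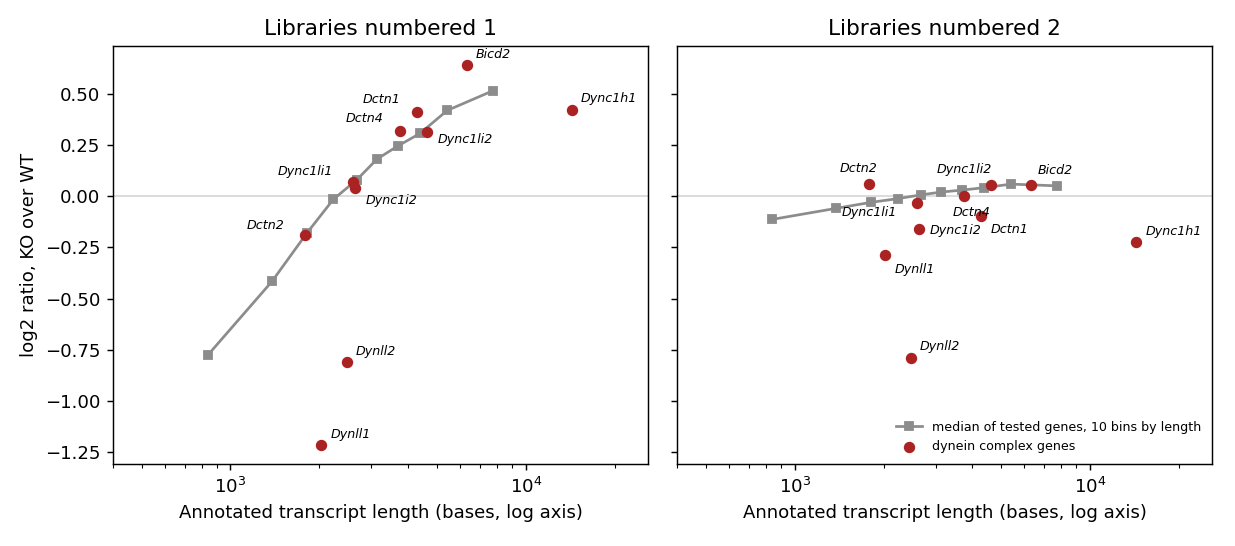
Log2 ratio of KO to WT against annotated transcript length (log axis), for the libraries numbered 1 (left) and 2 (right); squares are medians of tested genes in 10 bins by length, placed at their median length, and red points are the dynein complex genes. The grey medians rise from -0.78 to 0.51 within number 1 and stay between -0.11 and 0.059 within number 2, and Dynll1 and Dynll2 lie below them in both.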

How the data were processed

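Reads were filtered with Seqtk and mapped with HISAT2 2.0.4 by the authors, who counted fragments per gene with StringTie 1.3.3b. The authors deposited whole-number counts that were not normalised, with an FPKM value beside each. Within a gene the deposited FPKM was count over library total over 1 length (spread of at most 0.00398% over 10564 genes), and that length often differed from the annotated one (13237 against 2631 bases for Dync1i2, 17647 against 14342 for Dync1h1), so levels per kilobase used GENCODE M21 principal transcripts, the longest where there are several. The submitters' processing notes name mm39, but 27759 of the 34344 gene identifiers found in GENCODE M21 had identical positions on GRCm38, and GRCm38 positions are used. Use of strand in counting was not given in the sources used here, and no molecular identifiers are named. No library was a copy of another (chi-square of the counts over its degrees of freedom, 22.7 to 125 between pairs).

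Counts were tested in R 4.3.3 with edgeR 4.0.16 (filterByExpr with minimum count 10 and minimum total 15, TMM, glmQLFit and glmQLFTest, genotype only, two-sided, Benjamini-Hochberg over all tested genes). TMM factors were 0.955 and 0.942 in WT and 1.12 and 0.997 in KO. A call needed an adjusted p below 0.05 together with an absolute log2 fold change above 1. For ratios within a replicate number, 0.5 counts were added. No test was run on a list. DESeq2 1.42.0, limma 3.58.1 on log2(FPKM + 1), other filters and scalings, each library left out, a term for the replicate number and loess corrections for length (span 0.5) were alternatives. Scripts were tested on simulated counts with less spread between libraries than in these data, which does not show the power of the test here. The members and lists were chosen with earlier results of these data known. Named beyond the 10 genes were G3bp1, all other dynein-1 and dynactin subunits, the highest and lowest tested gene of each other list, and the 5 genes nearest to Dync1h1. Ninl and Kif3a fall outside this rule and were named after their values were seen. In the file, 59 symbols stood for more than 1 gene, among them Itgam of the macrophage markers, whose rows were summed.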

Additional observations from a re-analysis of the deposited data

How the results depend on the processing

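Calls among all genes were 0 in the reported fit and with other size factors, other filters, limma, no minimum fold change and either length correction, 1 without WT replicate 1 or 2 and 0 without either KO library, but 181 with the DESeq2 Wald test and 229 with the edgeR exact test. With the replicate block they were 664, with the block and length correction 623, and with the block and annotated length correction 273, while 0 of the 10 dynein complex genes were called in any of these. The block called 2 of the other dynein-1 subunits (Dynlt1a with edgeR adjusted p 0.00285, Dynlt1b with 5.97e-10), 2 adaptors (Bicd1 with 7.24e-06, and Ninl), 2 kinesins (Kif21a with 0.0305, and Kif3a) and 1 tubulin (Tubb3 with 2.26e-04). The call of Dynlt1a did not hold in every fit with the block. The numbers are not stated to pair the samples: deviations of same-numbered libraries correlated at 0.710, and the first principal component (57.4%) separated the numbers and the second (34.3%) the genotypes. Under the block, Dynll1 had -0.75 (edgeR adjusted p 0.0208) and Dynll2 -0.80 (0.0144), both under the fold limit, where 974 of all 12418 genes had an adjusted p under 0.05 (1222 with the length correction added and 327 of 12389 with annotated length). With the length correction added these were -0.83 (1.24e-04) and -0.78 (0.00134), and with annotated length -0.69 (0.169) and -0.82 (0.0285). G3bp1 had -0.60 (0.0853) under the block, -0.70 (0.00170) with the length correction added and -0.87 (0.0246) with annotated length, and Dync1h1 had 0.099 under the block alone.

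Dync1h1 ranged from -0.25 to 0.42 with 1 library left out and was negative with the length correction (-0.14, or -0.12 with the block) and the annotated length correction (-0.27 for both). Values of other genes changed sign, small ones apart from that of Dynlrb1 (-0.40 in the reported fit). With DESeq2 size factors and in the Wald test Dync1li1 had -0.026, and with no filter -0.0040. In limma the values were 0.087 for Dync1i2, 0.088 for Dctn2, 0.052 for Dynlt3, 0.10 for Dctn5, 0.11 for Capza1, 0.073 for Mapre1 and 0.023 for Tuba1c. The length correction gave 0.11 for Dctn2 and 0.026 for Tuba1c, and 0.11 and 0.035 with the block. The annotated length correction gave -0.023 for Dync1li1 (-0.018 with the block), -0.013 for Dync1li2 (-0.013), -0.021 for Dctn1 (-0.023), 0.050 for Dctn2 (0.050), 0.075 for Dynlrb1 (0.080) and 0.16 for Dctn5 (0.14). The cause was not tested.

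Left-out ranges that crossed 0 were -0.22 to 0.25 for Dync1li1, -0.088 to 0.44 for Dync1li2, -0.18 to 0.019 for Dctn2, -0.30 to 0.19 for Dctn5, -0.085 to 0.25 for Actr1a, -1.26 to 0.82 for Kif5c, -0.19 to 0.045 for Dync1i2, -0.25 to 0.61 for Dynlt1c, -0.21 to 0.11 for Capza1, -0.77 to 0.093 for Capza2, -0.24 to 0.067 for Mapre1, -0.37 to 0.092 for Tuba1c and -0.22 to 0.014 for Dynlt3. Over all alternatives, 465 of 535 values of single genes kept direction and side of the threshold, 52 reversed and 18 newly passed it. Of 120 medians of gene groups, 106 kept their sign and 14 changed it, and 113 of 137 counts of calls kept their value. The lowest count of the 10 genes was 573, above the floor of 3 counts that 0 allows.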

Other observations

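Dynein-2, the motor that returns cargo from the tip of the primary cilium, gave 0 calls by the quasi-likelihood, DESeq2 and edgeR exact tests among its 5 tested subunits, with 0 at an unadjusted p under 0.05. Its heavy chain gene Dync2h1 had WT counts of 53 and 59 and KO counts of 116 and 84, with a log2 fold change of 0.59 (SE 0.34, and 0.29 to 0.83 with 1 library left out), both KO libraries being higher. The light chain gene Tctex1d2 had the lowest value of the 5, -0.63 (SE 0.37), with WT counts of 892 and 450 and KO counts of 473 and 557. With WT replicate 1 left out it had -0.073, and with WT replicate 2 left out, -1.07.

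Kinesins that carry cargo toward the plus ends of microtubules had log2 fold changes above 0 in 16 of 18 tested genes (of 20 listed), as did 6776 of all 12418 genes. Their median was 0.21, with 0.060 without KO replicate 1, 0.34 without KO replicate 2 and -0.00015 after the correction for annotated length. The quasi-likelihood test called 0 of them, with 2 at an unadjusted p under 0.05 (6.63% of all genes), and the DESeq2 and edgeR exact tests also called 0. Kif21a had WT counts of 2 and 0 and KO counts of 11 and 12. Its fitted log2 fold change was 3.13 (SE 1.01, edgeR quasi-likelihood adjusted p 0.597). The 95% interval ran from 1.48 to 52.1 times the WT level. With each WT library set at 3 counts, the mean KO level was 3.22 times the WT level. That is not a lower bound, because 3 counts is the limit for 0 counts and WT replicate 1 had 2. Kif5c, a conventional kinesin best known from neurons, was the lowest at -0.32 (SE 0.76). Kif3a, a subunit of heterotrimeric kinesin-2 named after its values were seen, had WT counts of 358 and 243 and KO counts of 1375 and 628, and its fitted log2 fold change was 1.50 (SE 0.47, edgeR quasi-likelihood adjusted p 0.553).

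Of 11 tested tubulin genes (of 14 listed), 0 were called by the quasi-likelihood and DESeq2 tests and 1 by the edgeR exact test (1.84% of all genes), with 1 at an unadjusted p under 0.05 (6.63% of all genes), and the median log2 fold change was 0.14, or -0.0068 without WT replicate 1 and -0.037 without KO replicate 2. Tubb3, a beta tubulin typical of neurons, had WT counts of 13 and 10 and KO counts of 54 and 55, and its fitted log2 fold change was 1.98 (edgeR quasi-likelihood adjusted p 0.289, exact test adjusted p 0.0191). The abundant Tuba1c had WT counts of 7960 and 9680 and KO counts of 7941 and 11499, with -0.12 (SE 0.27).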
